A study of Homo sapiens with 4 samples.

Results

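The 8 genes described here encode proteins that decide how long a messenger RNA lasts: ZFP36, ZFP36L1 and ZFP36L2, the antiproliferative BTG and TOB genes BTG1, BTG3, TOB1 and TOB2, and ELAVL1. They were taken by symbol from a deposited table of 20372 genes, in which each had 1 row. RNA sequencing libraries came from TPC1, a papillary thyroid carcinoma cell line whose RET kinase is active through a CCDC6-RET gene fusion. Cells were given BLU6864, a selective RET inhibitor, for 6 h (n = 2 libraries), or the solvent DMSO (n = 2 libraries). All 4 libraries are of this 1 line and carry the fusion. The labels give no time for DMSO, whose columns in the table are named with 24 h, so the drug and the time in culture cannot be told apart. The titles of both BLU6864 samples, and of neither DMSO sample, carry the mark re-analysis. The drug and any difference that this mark stands for cannot be told apart either. The labels give a BLU6864 dose of 100 µM and the study's text gives 100 nM, and the dose of these libraries is therefore uncertain. Nothing in the labels says that the libraries of a group came from separate cultures, so p-values measure the spread between these libraries, which may be technical.

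AU-rich elements are stretches of A and U in the 3′ untranslated region (3′UTR) of short-lived mRNAs, among them many cytokine, growth factor and cell cycle transcripts. ZFP36, also known as tristetraprolin, and its relatives ZFP36L1 and ZFP36L2 bind such elements through paired zinc fingers and recruit the CCR4-NOT complex, which shortens the poly(A) tail and starts decay. BTG and TOB proteins bind the CCR4-NOT deadenylases CNOT7 and CNOT8, and the TOB proteins also bind the poly(A)-binding protein. ELAVL1, known as HuR, binds AU- and U-rich sequences too, and is known for stabilising the transcripts it binds. What was measured is the amount of each mRNA at 1 time, and neither decay rates nor protein levels were measured.

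The mRNAs of the AU-rich element binders carry the same kind of element themselves. The core heptamer UAUUUAU was present in the annotated 3′UTR of 7 of the 8 genes, and the longer nonamer UUAUUUAUU, the sequence preferred by ZFP36, in 4 of them, which are the 3 ZFP36 family genes and ELAVL1. These 4 sites are shown because the nonamer was found in the binders and in none of the BTG and TOB genes. The heptamer does not separate them. Of 12391 tested genes with an annotated 3′UTR, 1210 had the nonamer. The share of all tested genes with the heptamer is not reported here, so nothing is read from its presence in 7 of 8. The 4 nonamer sites are written 5′ to 3′ on the strand of the mRNA, as DNA from the GRCh38 genome, with the heptamer in capitals.
ZFP36, chr19:39409200-39409220, plus strand: acgacttTATTTATtctaata
ZFP36L1, chr14:68788081-68788101, minus strand: gttggatTATTTATtttagaa
ZFP36L2, chr2:43223452-43223472, minus strand: tttaactTATTTATtatcttg
ELAVL1, chr19:7961832-7961852, minus strand: atgtattTATTTATtgaagtg
ELAVL1 had 5 heptamers in a 3′UTR of 4910 bases, and they lie close together, each overlapping the next or a few bases from it. ZFP36 had 3 in 708 bases, ZFP36L1 had 3 in 1871 bases and ZFP36L2 had 3 in 1917 bases. BTG3 had 2 in 440 bases, BTG1 had 1 in 3802 bases, TOB2 had 1 in 2817 bases and TOB1 had none in 757 bases. A match to these letters is a description of the sequence and not evidence of binding.

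Total counts over the table were 23917056 and 26829072 in BLU6864 libraries and 28305571 and 23750509 in DMSO libraries. RET itself did not pass the test (log2 fold change 0.04 ± 0.11 SE, adjusted p = 0.762, edgeR). Of the thyroid lineage markers, PAX8 averaged 20808 normalized counts with BLU6864 and 26795 with DMSO, FOXE1 and TG were present at lower levels, and NKX2-1 and TSHR had 0 reads in every library. EdgeR called PAX8, FOXE1 and TG lower with BLU6864, with log2 fold changes of -0.36 for PAX8 (adjusted p = 0.0256), -0.48 for FOXE1 (adjusted p = 0.00554) and -0.85 for TG (adjusted p = 1.78e-05). Of 12696 genes with enough reads to be tested, 5364 were called at an adjusted p under 0.05, which is 42.2%. Levels below are normalized read counts, that is counts divided by the deposited size factor of the library, with their mean and SD where a group is summarised. Differences are given as BLU6864 over DMSO, in log2 fold change with its SE, from edgeR's quasi-likelihood test, with p-values adjusted over all tested genes by the Benjamini-Hochberg method. In bulk libraries, fewer cells with a transcript and less of it per cell cannot be told apart.

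All 8 genes had enough reads to be tested, with between 472 and 7925 reads per library. ZFP36L2 and TOB1 rose with BLU6864, ELAVL1 fell by a smaller amount, and the other 5 were not called. The share called was 2 of 8 for higher, where 20.3% of all tested genes were called higher, and 1 of 8 for lower, where 22.0% were called lower. At a log2 fold change beyond 0.5 with an unadjusted p under 0.01, ZFP36L2 and TOB1 passed as higher, against 11.0% of all tested genes. None of the 8 passed as lower, against 12.5% of all tested genes, since the most negative log2 fold change was -0.33 (ELAVL1). At the adjusted p, 1 gene more or fewer among the 8 would move these shares past the background, so nothing is read from them. In size, ZFP36L2 changed by more than 93.7% of tested genes did in absolute log2 fold change, TOB1 by more than 82.0% and ELAVL1 by more than 57.2%. The 5 other genes lay between 17.6% and 44.4% on that scale.

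**Figure D1:**
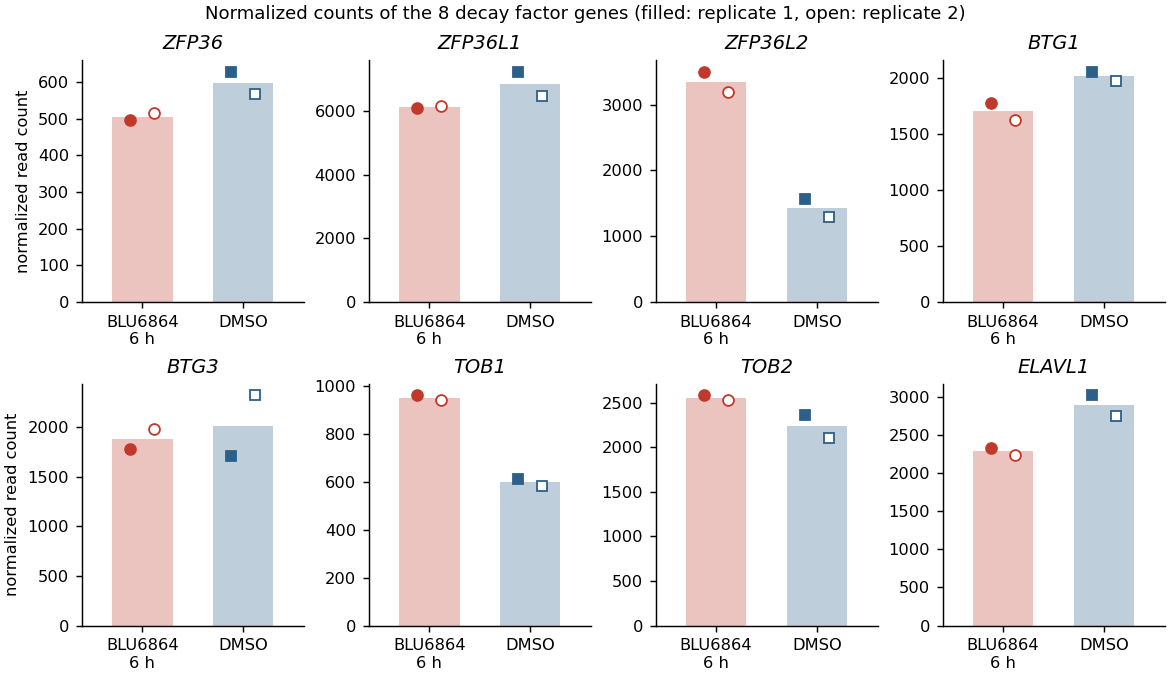
Normalized read counts of the 8 genes (vertical axes, each starting at 0) in BLU6864 and DMSO libraries. Points are libraries (filled, replicate 1; open, replicate 2) and bars are means of 2. ZFP36L2 averaged 3351 with BLU6864 and 1434 with DMSO, TOB1 949 and 598, and BTG3 is the gene whose groups overlap.

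Of the ZFP36 family, ZFP36L2 passed the test and the other two did not. ZFP36L2 (ENSG00000152518, hg19 chr2:43449541-43453748) had 3503 and 3199 normalized counts in BLU6864 libraries, against 1571 and 1297 in DMSO libraries. Both BLU6864 libraries lay above both DMSO libraries, with means of 3351 ± 215 and 1434 ± 194 (n = 2 each). The log2 fold change was 1.23 ± 0.11 (95% interval 1.0 to 1.46), which is 2.34-fold, with an adjusted p of 1.33e-09 in edgeR. In the table the span of ZFP36L2 overlaps that of THADA, a long neighbouring gene. Both genes lie on the minus strand, and on GRCh38 their annotated spans do not overlap. THADA had 1116 and 1020 normalized counts in BLU6864 libraries and 1086 and 1089 in DMSO libraries, and its groups overlapped (log2 fold change -0.02 ± 0.11, adjusted p = 0.882, edgeR).

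ZFP36L1 (ENSG00000185650, hg19 chr14:69254377-69263190) was the most abundant of the family. It had 6122 and 6162 normalized counts in BLU6864 libraries, against 7254 and 6474 in DMSO libraries, with a log2 fold change of -0.16 ± 0.11 (95% interval -0.39 to 0.08, adjusted p = 0.282, edgeR). The groups did not overlap, but the difference was within what the test allows for spread. ZFP36 (ENSG00000128016, hg19 chr19:39897453-39900052), the founding member and a textbook immediate early gene, had 496 and 514 normalized counts in BLU6864 libraries, against 628 and 568 in DMSO libraries. Its log2 fold change was -0.24 ± 0.12 (95% interval -0.48 to 0.00, adjusted p = 0.106, edgeR), and it was not called although the groups did not overlap. Neither gene is shown to be unchanged, since the intervals reach a decrease of 0.39 and 0.48 on the log2 scale.

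The share of ZFP36L2 in the family can be read inside each library, where no scaling between libraries enters. ZFP36L2 took 34.6% (95% Wilson interval 33.7% to 35.6%) and 32.4% (31.5% to 33.3%) of the reads of the 3 genes in BLU6864 libraries, against 16.6% (15.9% to 17.3%) and 15.5% (14.8% to 16.4%) in DMSO libraries. These shares rest on 9633 and 10544 reads with BLU6864 and on 10327 and 7621 with DMSO, and the intervals cover counting error only. Per kilobase of transcript, the share of ZFP36L2 was 29.1% and 27.0% with BLU6864, against 13.3% and 12.4% with DMSO. The ratio of ZFP36L2 to ZFP36L1 reads was 0.57 and 0.52 in BLU6864 libraries and 0.22 and 0.20 in DMSO libraries. In each of these measures both BLU6864 libraries lay above both DMSO libraries, and an exact permutation test of 2 libraries against 2 cannot give a two-sided p below 0.33.

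ELAVL1 (ENSG00000066044, hg19 chr19:8023463-8070543), the stabilising binder, had 2339 and 2243 normalized counts in BLU6864 libraries, against 3027 and 2760 in DMSO libraries. The groups did not overlap, and the means were 2291 ± 67.6 and 2893 ± 189 (n = 2 each). The log2 fold change was -0.33 ± 0.11 (95% interval -0.55 to -0.12), a 1.26-fold decrease with an adjusted p of 0.0125 in edgeR. Without BLU6864 replicate 1 the log2 fold change of ELAVL1 was -0.36 (SE 0.18), and without replicate 2 it was -0.31 (SE 0.19). The call was lost in both fits, with an estimate of similar size and a larger SE. In these fits the spread comes from the DMSO pair alone. Over all genes that pair differed more between its replicates (chi-square per degree of freedom 32.3) than the BLU6864 pair (10.0). Summed per kilobase, the 3 ZFP36 family mRNAs stood at 8.44 and 8.64 times ELAVL1 in BLU6864 libraries and at 6.38 and 6.19 times in DMSO libraries.

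The BTG genes were not called. BTG1 (ENSG00000133639, hg19 chr12:92536286-92539673), which restrains proliferation of blood and other cells, had 1779 and 1622 normalized counts in BLU6864 libraries, against 2057 and 1971 in DMSO libraries. The groups did not overlap, and the log2 fold change of -0.24 ± 0.10 (95% interval -0.45 to -0.03) had an unadjusted p of 0.0295 and an adjusted p of 0.0657 in edgeR, just over the threshold. BTG3 (ENSG00000154640, hg19 chr21:18965971-18985265) had 1782 and 1983 normalized counts in BLU6864 libraries, against 1703 and 2321 in DMSO libraries. The DMSO libraries enclosed both BLU6864 libraries, and the log2 fold change was -0.09 ± 0.12 (95% interval -0.34 to 0.16, adjusted p = 0.583, edgeR). Its direction depended on the DMSO libraries: the log2 fold change was -0.30 without DMSO replicate 1 (adjusted p = 0.00362, edgeR) and 0.15 without DMSO replicate 2 (adjusted p = 0.175, edgeR). BTG2, the family member best known as a p53 target, had 285 and 287 normalized counts in BLU6864 libraries, against 249 and 241 in DMSO libraries, and was not called (log2 fold change 0.23 ± 0.13, adjusted p = 0.183, edgeR).

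The TOB genes both had positive values, and 1 of them passed. TOB1 (ENSG00000141232, hg19 chr17:48939584-48945339), which couples the poly(A)-binding protein to the deadenylase, had 960.3 and 938 normalized counts in BLU6864 libraries, against 612 and 583 in DMSO libraries. Both BLU6864 libraries lay above both DMSO libraries, and within each group the libraries were close, with means of 949 ± 15.4 and 598 ± 20.6 (n = 2 each). The log2 fold change was 0.67 ± 0.11 (95% interval 0.44 to 0.90), a 1.59-fold rise with an adjusted p of 2.33e-05 in edgeR. TOB2 (ENSG00000183864, hg19 chr22:41829496-41843027), its close relative, had 2583 and 2529.8 normalized counts in BLU6864 libraries, against 2359 and 2106 in DMSO libraries. Its log2 fold change of 0.20 ± 0.11 (95% interval -0.02 to 0.42, adjusted p = 0.132, edgeR) was not called, although the groups did not overlap. The ratio of TOB1 to TOB2 reads within a library was 0.37 in both BLU6864 libraries, against 0.26 and 0.28 in DMSO libraries.

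**Figure D2:**
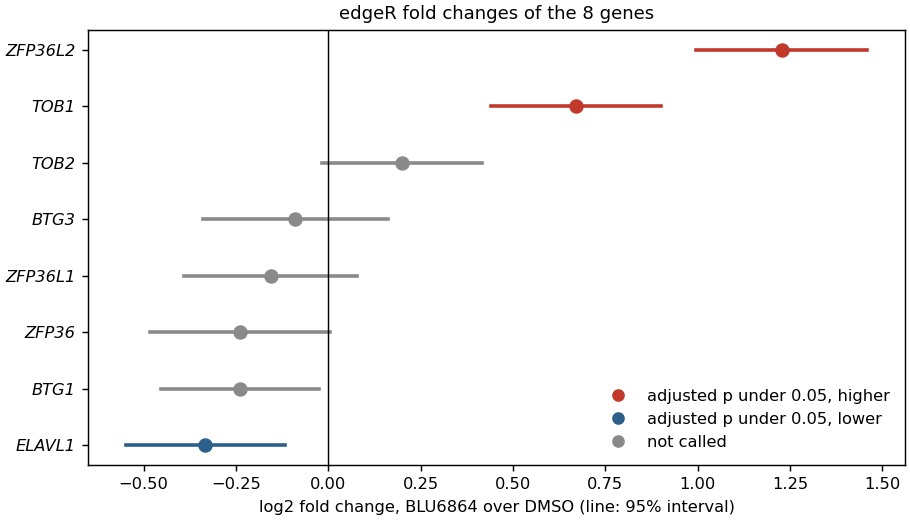
Log2 fold change of BLU6864 over DMSO for the 8 genes (horizontal axis), with points at the edgeR estimate and lines for the 95% interval, coloured by call. The intervals of ZFP36L2 (1.0 to 1.46) and TOB1 (0.44 to 0.90) lie above 0 and that of ELAVL1 (-0.55 to -0.12) below it.

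Of the 8 genes, 7 had normalized counts that did not overlap between the groups. This held for 70.8% of all tested genes, so a lack of overlap between 2 and 2 libraries says little here. The annotation also lists sequences that could share reads with these genes. Processed pseudogenes TOB2P1, BTG1P1 and BTG3P1 were found by name, and their sequences were not compared. On the opposite strand, BTG3-AS1 and BTG1-DT overlap the starts of BTG3 and BTG1, and TOB1-AS1 overlaps or lies beside TOB1. In the deposited table C12orf79 overlaps BTG1, with 3 and 1 reads in BLU6864 libraries and 3 and 4 in DMSO libraries. Whether counting used strand is not given in the sources used here, and the values of TOB1, TOB2, BTG1 and BTG3 are uncertain to that extent. How reads shared by ZFP36L2 and THADA were counted is not given either, which leaves the values of ZFP36L2 uncertain as well.

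Levels of different genes were compared per kilobase of the canonical transcript in GENCODE v44, since longer transcripts give more reads. This length is that of the annotation given here, not of the one used for counting. For BTG1 the deposited hg19 span, chr12:92536286-92539673, is shorter than the 4.629 kb of the transcript used here. Its level per kilobase is therefore understated, and the ranks of genes placed above it are uncertain. ZFP36L1 was the highest of the 8 in both groups, with 2036 ± 9.32 normalized counts per kilobase in BLU6864 libraries and 2275 ± 183 in DMSO libraries (SD, n = 2 each). BTG3 came next, with 1335 ± 101 in BLU6864 libraries and 1427 ± 310 in DMSO libraries. ZFP36L2 stood at 907 ± 58.1 in BLU6864 libraries, where it ranked 3 of 8, and at 388 ± 52.5 in DMSO libraries, where it ranked 6 of 8. By these lengths TOB1 ranked 5 of 8 with BLU6864 (424 ± 6.89), a rank that depends on the length taken for BTG1. With DMSO it ranked 8 of 8 (267 ± 9.20). TOB2 had 589 ± 8.60 with BLU6864 and 515 ± 41.1 with DMSO, ELAVL1 had 378 ± 11.2 and 478 ± 31.2, BTG1 had 367 ± 23.9 and 435 ± 13.1, and ZFP36 had 289 ± 7.40 and 342 ± 24.3. Neighbours whose libraries overlapped in this order were TOB2 and ELAVL1 as well as ZFP36L2 and ZFP36 with DMSO. With BLU6864 they were ELAVL1 and BTG1, which again depends on the length taken for BTG1.

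The calls of ZFP36L2 and TOB1 held under every other scaling, filter and test tried and without any 1 library, with log2 fold changes between 1.09 and 1.37 for ZFP36L2 and between 0.63 and 0.72 for TOB1. The calls of the other genes moved with single libraries. Their SE moved as well, being smaller with a DMSO library left out and larger with a BLU6864 library left out. For BTG3 it was 0.12 with all 4 libraries and 0.09 without either DMSO library. A changed call can therefore reflect the closer BLU6864 pair, which then sets the spread, and not only a changed estimate. Without DMSO replicate 2, ZFP36 (-0.31, adjusted p = 0.0134), ZFP36L1 (-0.24, adjusted p = 0.0344), BTG1 (-0.27, adjusted p = 0.00818) and ELAVL1 were called lower by edgeR, 4 of 8. Without DMSO replicate 1, BTG1 (-0.21, adjusted p = 0.0468), BTG3 and ELAVL1 were called lower and TOB2 higher (0.28, adjusted p = 0.0111) by edgeR. These shares stood beside 27.8% of all tested genes called lower without DMSO replicate 2 and 22.5% without DMSO replicate 1. With 1 BLU6864 library left out, 0 of the 8 were called lower by edgeR, with 1 (without replicate 1) and 0 (without replicate 2) at an unadjusted p under 0.05. In these fits 12.5% and 11.6% of all tested genes were called lower, so the count of 0 lies near the background.

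**Figure D3:**
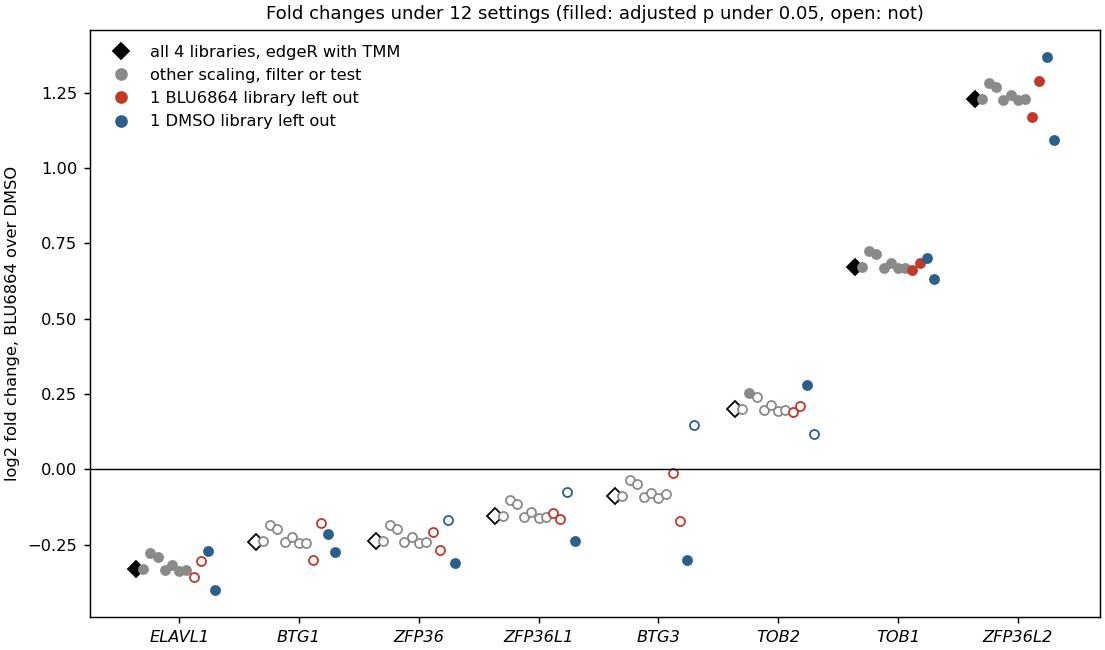
Log2 fold change of BLU6864 over DMSO (vertical axis) for each gene under 12 settings. Black diamonds use all 4 libraries with the settings of the report, grey points another scaling, filter or test, red points leave out 1 BLU6864 library and blue points 1 DMSO library, with filled symbols at an adjusted p under 0.05. ZFP36L2 and TOB1 are filled throughout, and BTG3 spans 0, with values between -0.30 and 0.15.

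Transcripts of the machinery that these proteins recruit were counted list by list. These lists and those that follow were chosen with earlier results of these data known, so their shares are descriptions. Of 17 deadenylation genes, 4 fell and 1 rose, with a median log2 fold change of -0.12, where that of all tested genes was 0.01. The 4 were RQCD1 (-0.42 ± 0.10, adjusted p = 0.00178), the CNOT9 subunit that docks partners on CCR4-NOT, the catalytic subunit CNOT6 (-0.41 ± 0.10, adjusted p = 0.00243), the subunit CNOT11 (-0.37 ± 0.10, adjusted p = 0.00573) and the CCR4-NOT associated TNKS1BP1. PAN2, catalytic in the other deadenylase complex, rose (0.39 ± 0.12, adjusted p = 0.012). CNOT7, a deadenylase to which BTG and TOB proteins bind, had 3497 and 3402 normalized counts in BLU6864 libraries, against 3100 and 3516 in DMSO libraries, and was not called. CNOT8, the other such deadenylase, had 4609 and 4553 with BLU6864, against 3548 and 4209 with DMSO, and was not called either (adjusted p = 0.0803). All of these adjusted p-values are from edgeR. Without BLU6864 replicate 1, edgeR called 1 of the 17 lower and 0 higher (3 and 1 at an unadjusted p under 0.05). Without BLU6864 replicate 2 it called 0 in either direction (2 and 1 unadjusted), and without DMSO replicate 2 it called 6 lower and 2 higher. The shares of all genes called moved the same way, with 12.5% lower and 11.7% higher without BLU6864 replicate 1, 11.6% and 9.75% without BLU6864 replicate 2, and 27.8% and 25.4% without DMSO replicate 2.

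Of 18 decapping and 5′-to-3′ decay genes, 2 fell and 5 rose, with a median of 0.09. LSM14A, a P-body protein, had 7439 and 6665 normalized counts in BLU6864 libraries, against 4237 and 4370 in DMSO libraries (log2 fold change 0.72 ± 0.11, adjusted p = 1.02e-05, edgeR). EIF4ENIF1, which ties the cap-binding protein to P-bodies, and LSM2, part of the LSM ring, rose by 0.48 ± 0.12 and 0.45 ± 0.11, and EDC3 and LSM3 rose by less. The decapping cofactor DCP1A (-0.53 ± 0.11) and the scaffold PATL1 (-0.34 ± 0.11) fell. The decapping enzyme itself, DCP2, was not called (-0.12 ± 0.11, adjusted p = 0.369, edgeR). Without BLU6864 replicate 1, edgeR called 1 lower and 2 higher. Without BLU6864 replicate 2 it called 0 lower (1 at an unadjusted p under 0.05) and 2 higher, and without DMSO replicate 2 it called 4 lower and 7 higher. Over all genes, the fit without BLU6864 replicate 2 called 11.6% lower and 9.75% higher, and the fit without DMSO replicate 2 called 27.8% and 25.4%.

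Of 17 exosome and 3′-to-5′ decay genes, 5 fell and 1 rose, with a median of -0.15. The exonucleases DIS3L2 (-0.48 ± 0.13) and DIS3 (-0.45 ± 0.11) and the exosome cap subunit EXOSC2 (-0.40 ± 0.12) fell most, EXOSC3 and EXOSC4 fell by less, and EXOSC1 rose by 0.30 ± 0.11. Without BLU6864 replicate 1, edgeR called 1 of the 17 lower and 0 higher (3 and 2 at an unadjusted p under 0.05). Without BLU6864 replicate 2 it called 0 in either direction (3 and 0 unadjusted), and with either DMSO library left out it called 3 higher, with 5 lower without DMSO replicate 1 and 7 lower without DMSO replicate 2. Over all genes, the fit without BLU6864 replicate 2 called 11.6% lower and 9.75% higher, that without DMSO replicate 1 called 22.5% and 19.9%, and that without DMSO replicate 2 called 27.8% and 25.4%. For these 3 lists, lower calls in all 4 libraries came to 23.5%, 11.1% and 29.4% of members, beside 22.0% of all genes, and higher calls to 5.88%, 27.8% and 5.88%, beside 20.3%.

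A list of 16 genes held other RNA binders, with BTG2 and BTG4 of the BTG family added. Of these, 13 had enough reads to be tested, and 3 fell and 4 rose with a median of 0.21. These are 23.1% lower and 30.8% higher, beside 22.0% and 20.3% of all tested genes. ZC3H12A, an endonuclease that cleaves inflammatory mRNAs, had 4485 and 4469 normalized counts in BLU6864 libraries, against 1870.0 and 1847 in DMSO libraries, and its change (1.27 ± 0.11, adjusted p = 2.07e-10, edgeR) was of the size of that of ZFP36L2. CELF1, which binds GU-rich elements and promotes deadenylation, had 6121 and 6103 with BLU6864, against 3285 and 3110 with DMSO (0.94 ± 0.11, adjusted p = 9.13e-08, edgeR). TIA1, a stress granule protein, rose by 0.56 ± 0.11. HNRNPD, the AU-rich element binder AUF1, fell by 0.53 on the log2 scale (SE 0.12), RC3H2, a Roquin protein, fell by 0.31 (SE 0.10), and ELAVL2, a neuronal relative of ELAVL1, fell at few reads, with 7 and 5 in BLU6864 libraries against 19 and 17 in DMSO libraries. Without BLU6864 replicate 1, edgeR called 1 of the 13 lower, beside 12.5% of all genes, and without BLU6864 replicate 2 it called 0 lower (1 at an unadjusted p under 0.05), beside 11.6%.

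The next list held 8 kinases and phosphatase genes known to act on ZFP36 family or TOB proteins or to act upstream of those that do. Of these 5 fell, none had a positive log2 fold change, and the median was -0.30. The lower calls came to 62.5% of the list, beside 22.0% of all tested genes, and the 0 higher calls stood beside 20.3%. Since the list was chosen with earlier results of these data known, these shares describe it and do not test it. RPS6KA2 and RPS6KA3, RSK kinases that act below ERK, fell most. RPS6KA2 had 898 and 919.8 normalized counts in BLU6864 libraries, against 1925 and 1758 in DMSO libraries (-1.01 ± 0.11, adjusted p = 1.68e-08, edgeR), and RPS6KA3 had 1578 and 1523, against 2648 and 2524 (-0.73 ± 0.10, adjusted p = 2.22e-06, edgeR). MAPK14, the p38 kinase, fell by 0.42 on the log2 scale (SE 0.11), and MAPKAPK2 and MAPKAPK3, the kinases through which p38 restrains ZFP36, fell by 0.29 (SE 0.11) and 0.32 (SE 0.10). MAPK11, RPS6KA1 and PPP2CA had values between -0.16 and -0.11 and were not called. With either BLU6864 library left out, 2 of the 8 (25.0%) were called lower, beside 12.5% of all genes without replicate 1 and 11.6% without replicate 2.

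The 28 transcripts listed as textbook carriers of AU-rich elements changed widely and in both directions. Of them 16 fell (57.1%, beside 22.0% of all tested genes) and 7 rose (25.0%, beside 20.3%). This list too was chosen with earlier results of these data known, so its shares are not a test of AU-rich transcripts. The median log2 fold change was -0.92, beside 0.01 for all tested genes, and the counts stayed between 16 and 18 lower and between 6 and 8 higher under every alternative. IL1B, an inflammatory cytokine, had 571 and 643 normalized counts in BLU6864 libraries, against 16119 and 19541 in DMSO libraries (-4.87 ± 0.15, adjusted p = 1.02e-18, edgeR). CCND1, the cyclin of G1 phase, had 1192 and 1262 with BLU6864, against 13373 and 10948 with DMSO (-3.30 ± 0.13, adjusted p = 7.86e-17, edgeR), and the growth factor CSF2 fell by 2.11 on the log2 scale (SE 0.17). PIM1, a kinase transcribed below STAT signalling, had 1200 and 1131 with BLU6864, against 292 and 312 with DMSO (1.95 ± 0.12, adjusted p = 4.1e-13, edgeR). PTGS2, the inducible cyclooxygenase, and the chemokine CXCL1 rose by 1.31 ± 0.12 and 1.27 ± 0.13. Many of the transcripts that fell, such as CCND1, MYC and FOS, are also known to be transcribed below ERK, and transcription and decay cannot be told apart in counts of 1 time. TNF, the classical ZFP36 target, had 141 and 138 normalized counts in BLU6864 libraries, against 150.1 and 173 in DMSO libraries, and was not called (-0.21 ± 0.16, adjusted p = 0.318, edgeR).

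**Figure D4:**
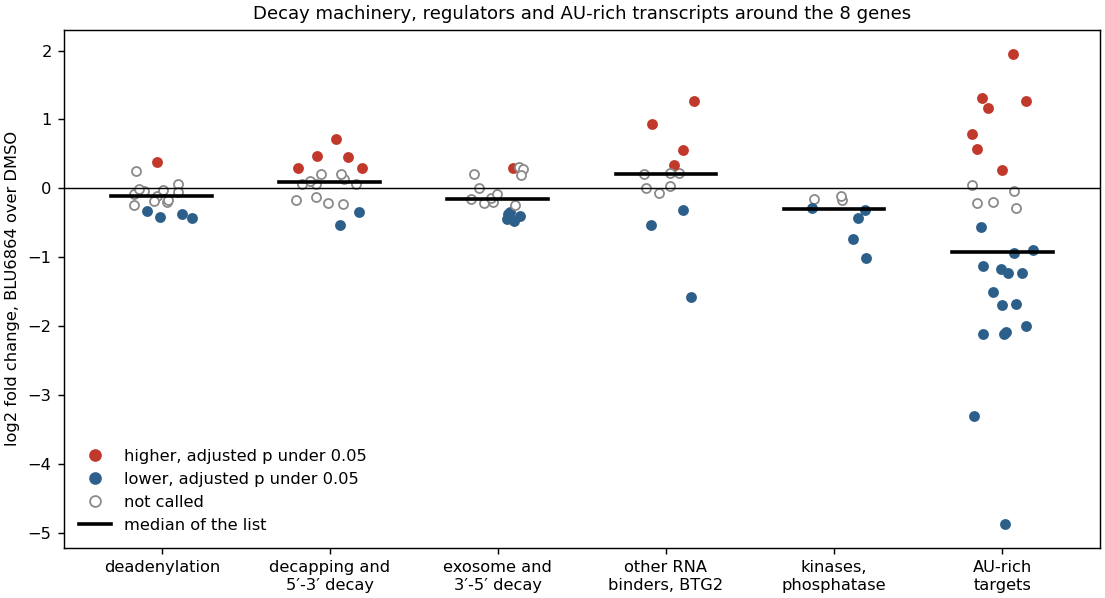
Log2 fold change of BLU6864 over DMSO (vertical axis) for the tested genes of the 6 lists, 1 point a gene, filled where called, with a black line at the list's median. The medians are -0.12 for deadenylation, 0.09 for decapping, -0.15 for the exosome and 0.21 for other RNA binders with BTG2. They are -0.30 for kinases and phosphatase and -0.92 for the AU-rich transcripts. The AU-rich transcripts reach down to -4.87 for IL1B and up to 1.95 for PIM1.

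The nonamer shown above was also counted in the 3′UTR of every tested gene with an annotated one. Of 1210 genes with at least 1 nonamer, 31.9% were called lower and 16.7% higher, with a median log2 fold change of -0.10. Of 11181 genes without it, 21.1% were called lower and 20.7% higher, with a median of 0.02. With 2 or more nonamers (291 genes), 33.3% were called lower and 17.2% higher, with a median of -0.11. Genes with a nonamer also had longer 3′UTRs, with a median of 3110 bases against 1208 bases without, and the part of length in this difference was not tested. Among the AU-rich transcripts above, 10 of 19 with a nonamer were called lower and 7 higher, and 6 of 9 without it were called lower and 0 higher by edgeR.

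Profiles over the 4 libraries were compared for the 8 genes' extremes, ELAVL1 and ZFP36L2, by Euclidean distance on the log2 scale among 10686 tested genes. The genes nearest to ZFP36L2 were SDC3, a heparan sulfate proteoglycan of the cell surface (distance 0.03, log2 fold change 1.25 ± 0.11), ACBD4 (distance 0.04, 1.22 ± 0.14) and TGFB2, a TGF-beta ligand (distance 0.06, 1.18 ± 0.14). The genes nearest to ELAVL1 were PURB, a single-stranded nucleic acid binder, FBXW2, an F-box protein, and the chaperone DNAJA1, at distances between 0.0059 and 0.0212 and with log2 fold changes of -0.33 each. With 4 libraries, such likeness describes these libraries only.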

How the data were processed

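Messenger RNA of TPC1 cells was sequenced in 4 libraries, 2 with BLU6864 for 6 h and 2 with DMSO, grouped by the labels. The submitters' processing notes name STAR 2.3, hg19 and DESeq2, with no DESeq2 version, and no source used here gives the counting tool, annotation or strand setting. The labels describe single-end reads, whereas the methods of the study describe paired-end reads and a stranded kit, so the layout is uncertain, and the titles of the BLU6864 samples mark them as re-analysed. The authors deposited raw counts per gene and library, and a normalized signal, each count divided by 1 size factor per library. The deposited fold changes and p-values were not used. Of 20372 rows, 4143 had no read.

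The 12696 genes kept by filterByExpr were fitted in edgeR 4.0.16 (R 4.3.3) with TMM factors and group alone, and tested by its two-sided quasi-likelihood F test, and the SE was derived from the F statistic. The alternatives were 2 other scalings and no scaling factors, 2 other filters, DESeq2 1.42.0, limma 3.58.1 on log2 of the normalized count plus 1, a replicate block, leaving out each library, and another call rule. Where 1 library is left out, the lone library of its group is assumed to vary like the others. The fit was tested on simulated data. Some results are not reported here. The 8 genes and the 6 lists were chosen with earlier results of these data known. In each list, up to 3 called genes per direction with the largest change were named by rule, together with the 3 nearest profiles of the highest and lowest of the 8. TNKS1BP1, CNOT7, CNOT8, EDC3, LSM3, DCP2, EXOSC3, EXOSC4, BTG2, MAPKAPK2, MAPKAPK3, MAPK11, RPS6KA1, PPP2CA, MYC, FOS and TNF were named after their values were seen, and the nonamer count over all 3′UTRs was also chosen then. Sites were found in GENCODE v44 canonical transcripts on GRCh38, while gene positions are those of the deposited table (hg19).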

Additional observations from a re-analysis of the deposited data

How the results depend on the processing

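Of the 8 genes, ZFP36L2 and TOB1 kept their call and direction in all 12 alternatives that give a fold change, with an adjusted p of at most 1.1e-08 and 0.00183. The other 6 genes kept their direction, apart from BTG3, which was 0.15 without DMSO replicate 2. Leaving out 1 library at a time gave log2 fold changes of -0.31 to -0.17 for ZFP36, -0.24 to -0.077 for ZFP36L1, -0.30 to -0.18 for BTG1, -0.30 to 0.15 for BTG3, 0.12 to 0.28 for TOB2 and -0.40 to -0.27 for ELAVL1. Upper quartile scaling called TOB2 (0.25, adjusted p = 0.0477 in edgeR, with a range of 0.0111 to 0.478 over its alternatives). With 1 library left out, between 0 and 4 of the 8 genes were called lower and 2 or 3 higher. Over all genes, between 1490 and 3621 were called lower and between 1250 and 3311 higher; the lowest counts came without BLU6864 replicate 2 (1490 and 1250) and without BLU6864 replicate 1 (1615 and 1521), where 1 library stood for BLU6864. At a log2 fold change beyond 0.5 with an unadjusted p under 0.01, 0 of the 8 genes were lower, and 1584 genes were lower and 1397 higher. DESeq2 called 2366 genes lower and 1912 higher. By that fold and p rule, deadenylation genes came to 0 lower and 0 higher (4 and 1 by adjusted p), decapping genes to 1 and 1 (2 and 5), exosome genes to 0 and 0 (5 and 1) and kinases to 2 lower (5). DESeq2 called 3 decapping and 0 exosome genes higher. Upper quartile scaling and library size alone each called 2 deadenylation and 2 exosome genes higher, and either other filter called 2 exosome genes higher. Over all genes, the main fit called 2574 higher, upper quartile scaling 3053 and library size alone 2989, each of 12696 tested. With no filter 2661 of 16229 were called higher, and with at least 10 counts in every library 2543 of 12188. DESeq2 gave a p-value for 16229 genes.

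Replicate numbers are shared by the groups, and the deviations of same-numbered libraries from their group means correlated at 0.13 over 12696 genes, but with 2 pairs and no label that says what a number marks, the numbers were not taken to pair the libraries. A fit with the replicate block called 3039 genes lower and 2924 higher. It called 2 deadenylation and 2 exosome genes higher, and 2 of the 8 genes lower, adding BTG1 (-0.24, adjusted p = 0.0406 in edgeR). Each of the 8 genes had at least 472 reads in each library.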
